A study of Mus musculus with 2 samples.

Results

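The genes described here encode the vascular endothelial growth factors (VEGFs) Vegfa, Vegfb and Vegfc, the VEGF receptors Flt1, Kdr and Flt4, the angiopoietins Angpt1 and Angpt2, and the TIE receptors Tek and Tie1. Every probe set of the array whose single symbol in the platform annotation was one of these 10 names was taken, which gave 19 probe sets of the 34945 with a single symbol, and 10 genes of 18193. The samples were 1 array of PR knockout ovaries, from mice lacking the progesterone receptor (gene Pgr), and 1 array of wild type ovaries. Mice of both genotypes were C57BL/6, 24 to 28 days old, and all received 5 IU of PMSG, a gonadotropin that drives follicle growth, and 48 h later 5 IU of hCG, which stands in for the luteinizing hormone surge that sets off ovulation. Tissue was collected 11 h after the hCG, so the comparison asks what the receptor's absence does to RNA levels around ovulation. The labels used here give neither the disrupted part of Pgr nor the number of mice behind an RNA sample.

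VEGF-A acts on endothelial cells through KDR, which carries most of its signal, while FLT1 binds the ligand tightly and transmits little, and so also limits it. VEGF-B binds FLT1, and VEGF-C acts mainly through FLT4, the receptor best known from lymphatic vessels. Angiopoietin 1, made largely by cells around vessels, activates the receptor TIE2 (gene Tek) and keeps vessels quiet. Angiopoietin 2, released by endothelial cells, mostly opposes it, and TIE1 is a partner receptor that modulates TIE2. In the ovary the vessels of the theca layer grow into the ruptured follicle after ovulation, and VEGF-A is known as a main driver of this growth.

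Signals are MAS5 intensities on a linear scale, and with 1 array per genotype each value is a single measurement without a replicate or a test. The median signal of all probe sets other than controls served as the floor for a measurable signal, 37.95 on the PR knockout and 36.2 on the wild type array. Each gene was read from its brightest probe set (by mean log2 signal of the arrays), and 11316 genes reached the floor on at least 1 array. Probe sets of the same gene differed from each other with a within-gene SD of 0.25 in log2 difference (1.19-fold, over 4771 genes), a spread that leaves out the animals. The 3 probe sets of Pgr gave 3.64, 42.8 and 21.1 in the PR knockout, against 2.97, 36.5 and 1.03 in the wild type, all near or under the floor, so they give no check of the genotype. The ovary markers Foxl2, Zp3 and Fshr were above the floor on both arrays, and so were the endothelial markers Pecam1 and Cdh5. Genotype and any difference in animals, RNA preparation or hybridization cannot be told apart.

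The angiopoietin and TIE genes and Vegfc had higher signal in the PR knockout ovary, while Vegfa, Vegfb and Kdr had nearly equal signals on both arrays. Tie1 was 1.94-fold, Angpt2 1.92-fold and Vegfc 1.70-fold higher. At the low end, Flt1 was 1.24-fold lower. In all, 7 of the 10 genes had higher signal in the PR knockout and 3 lower, with Vegfa counted as lower at a log2 difference of -0.0011, against 57.7% of all measured genes with any higher signal. At least 1.5-fold higher were 3 of the 10, against 6.54% of all measured genes, and at least 1.5-fold lower were 0, against 4.75%. At 2-fold, 0 of the 10 genes were past the threshold in either direction, against 1.15% of measured genes higher and 1.72% lower. The median log2 difference of the 10 genes was 0.35, against 0.06 over all measured genes, whose quartiles were -0.14 and 0.27. All 10 genes were above the floor on both arrays, so none of these folds is a bound.

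**Figure D1:**
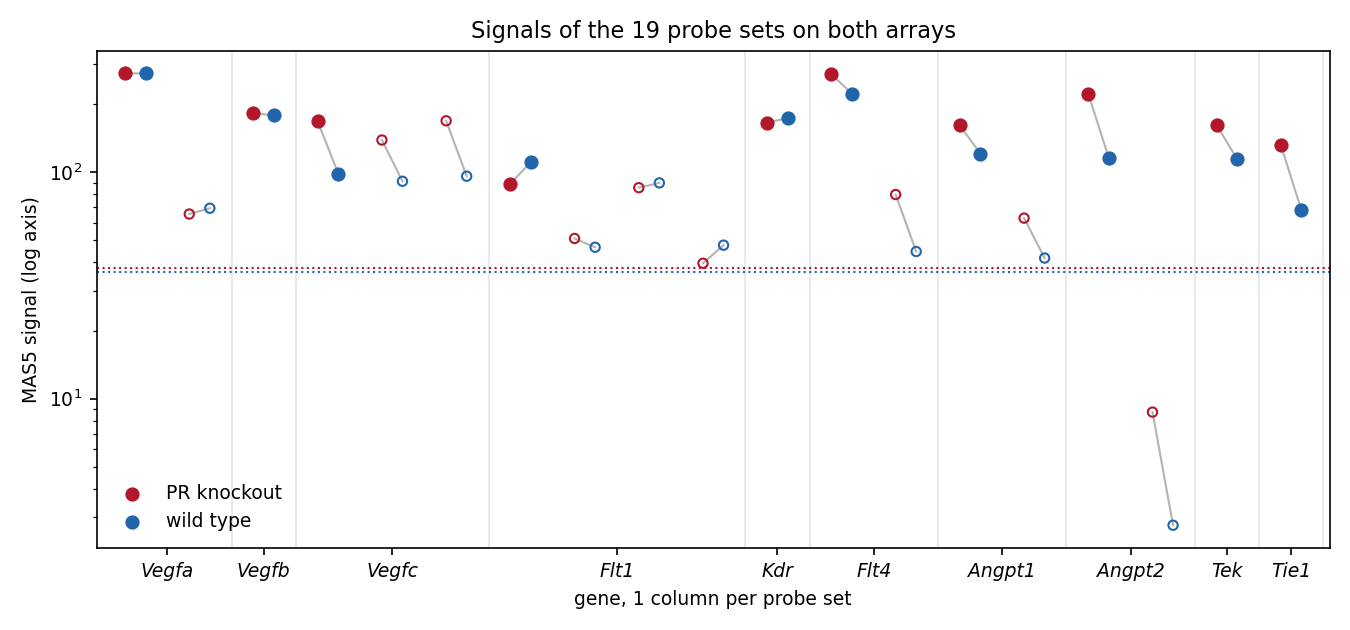
MAS5 signal (log axis) of each of the 19 probe sets in the PR knockout (red, left of each pair) and the wild type (blue, right) array. Filled points are the probe set that stands for the gene, open points the others, and dotted lines the floors of 37.95 and 36.2; the second Angpt2 probe set lies under both floors.

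**Figure D2:**
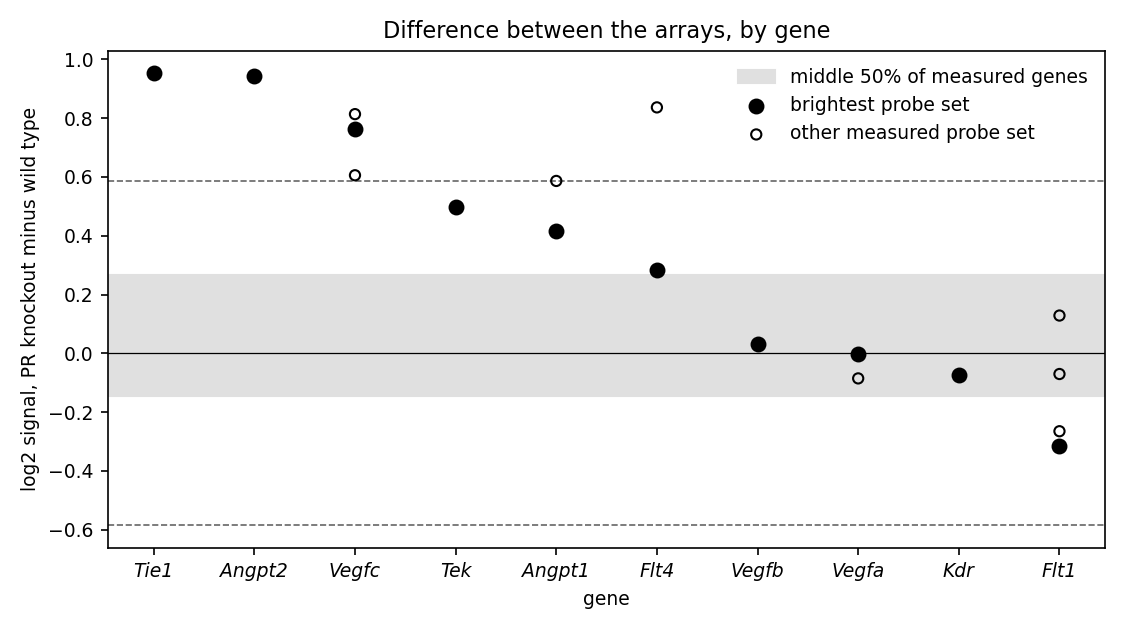
Difference in log2 signal, PR knockout minus wild type, for each measured probe set of the 10 genes, ordered by the brightest probe set (filled). The grey band spans the quartiles of all measured genes (-0.14 to 0.27) and dashed lines mark 1.5-fold. Vegfc lies above the upper line with all 3 of its probe sets, Tie1 and Angpt2 with the only measured probe set of each.

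Among the VEGF ligands, Vegfa, the main growth factor of ovarian vessels, was read by 2 probe sets. The brighter one (1420909_at) gave 274 in the PR knockout and 274 in the wild type ovary, and the dimmer one (1451959_a_at) 65.4 in the PR knockout and 69.4 in the wild type ovary. Vegfa signal was thus level between the arrays, with log2 differences of -0.0011 and -0.09. Vegfb, whose product binds FLT1 and is known from fat handling in muscle and heart, gave 182 in the PR knockout and 179 in the wild type ovary by its one probe set (1451803_a_at), a log2 difference of 0.03. These differences of Vegfa and Vegfb are smaller than the 0.25 within-gene SD between probe sets.

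Vegfc, which encodes the growth factor of lymphatic vessels, stood apart from these ligands. Its brightest probe set (1439766_x_at) gave 168 in the PR knockout and 98.8 in the wild type ovary. The probe set 1440739_at gave 169 in the PR knockout and 96.2 in the wild type ovary, and 1419417_at gave 139 in the PR knockout and 91.3 in the wild type ovary. All 3 were higher in the PR knockout, by 0.61 to 0.81 on the log2 scale, at or above 1.52-fold. The first ID carries the suffix of probe sets that may also match other transcripts, and the other probe sets, without it, gave 1.52-fold and 1.76-fold. The log2 difference of Vegfc exceeded that of Vegfa by 0.77 and that of Vegfb by 0.73. Vegfc lay in the fourth of 10 bins of mean signal, where 7.33% of genes were at least 1.5-fold higher and the median log2 difference was 0.12.

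Of the VEGF receptors, none was 1.5-fold apart by its brightest probe set. Kdr, the main signalling receptor for VEGF-A, gave 166 in the PR knockout and 174 in the wild type ovary (1449379_at), a log2 difference of -0.07. Flt1, the high-affinity receptor that also limits VEGF-A, had 4 probe sets. They gave 89.2, 85.6, 51.0 and 39.7 in the PR knockout ovary, against 111, 89.9, 46.7 and 47.7 in the wild type ovary (1419300_at, 1451756_at, 1440926_at and 1454037_a_at, in this order). The log2 differences of these Flt1 probe sets were -0.32, -0.07, 0.13 and -0.27, so their direction was not uniform. The last of them was close to the floor on both arrays, and all 4 lay under the 70th percentile of signals on both arrays (128 in the PR knockout and 121 in the wild type).

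Flt4, the receptor for VEGF-C, was higher in the PR knockout by both of its probe sets, though by unequal amounts. The brighter one (1444052_at) gave 271 in the PR knockout and 223 in the wild type ovary, and the dimmer one (1421442_at) 79.8 in the PR knockout and 44.7 in the wild type ovary. This is 1.22-fold by the brighter and 1.79-fold by the dimmer probe set, a wider gap than the 0.25 within-gene SD. Of the 3 VEGF receptor genes, Flt4 was higher in the PR knockout with all its probe sets, and Kdr lay 0.36 below it in log2 difference.

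The angiopoietins were both higher in the PR knockout ovary. Angpt2, the destabilizing ligand, gave 222 in the PR knockout and 116 in the wild type ovary (1448831_at), a log2 difference of 0.94. Its other probe set (1459636_at) gave 8.72 in the PR knockout and 2.76 in the wild type ovary, both under the floor, and gives no direction. Angpt1, the ligand that activates TIE2, gave 161 in the PR knockout and 121 in the wild type ovary by its brighter probe set (1439066_at), and 62.8 in the PR knockout and 41.8 in the wild type ovary by the other (1421441_at). The log2 differences of Angpt1 were 0.42 and 0.59, so both angiopoietins moved the same way. By the brighter Angpt1 probe set, the log2 difference of Angpt2 exceeded that of Angpt1 by 0.53. This is a 1.44-fold higher ratio of Angpt2 to Angpt1 signal in the PR knockout. With the dimmer Angpt1 probe set (0.59) the gap was smaller, and Angpt2 had 1 measured probe set.

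Both TIE receptor genes were likewise higher. Tie1, the partner receptor, gave 132 in the PR knockout and 68.0 in the wild type ovary (1416238_at), a log2 difference of 0.95 that exceeded that of 98.7% of measured genes. Tek, the gene of the angiopoietin receptor TIE2, gave 161 in the PR knockout and 114 in the wild type ovary (1418788_at), or 1.41-fold higher, above 90.5% of measured genes. Each of these receptors has 1 probe set, so a check by another probe set could not be made. Dim genes were at least 1.5-fold higher more often than bright ones, from 15.5% in the second bin of mean signal to 1.59% in the brightest. The shares at least 1.5-fold lower had no such trend, at 4.33% in the dimmest bin and 4.77% in the brightest. The median log2 difference was 0.14 in the third bin, 0.12 in the fourth and -0.05 in the brightest. In the third bin of mean signal, which holds Tie1 and Flt1, 12.0% of genes were at least 1.5-fold higher and 6.01% at least 1.5-fold lower. In the fourth, which holds Vegfc, Angpt1, Angpt2 and Tek, these shares were 7.33% and 3.27%.

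The RefSeq promoter table (build GRCm38.p6) held 9 promoter windows for 8 of these genes, each running from 250 bases before to 50 bases after an annotated start. Angpt1 and Angpt2 had no entry. The windows were searched on both strands for ACGTG (core of the hypoxia response element), AGAACA (half-site of the element that progesterone and glucocorticoid receptors bind), CGGAAG (core of ETS factors, which are prominent in endothelial cells), GGGCGG (GC box) and TGACGTCA (cyclic AMP response element). The windows below belong to the TIE receptors and Vegfc, which were higher in the PR knockout, and to Flt1, the gene with the lowest difference; capitals mark every match. Tie1 lies on chr4:118489800-118490099 (minus strand), Tek on chr4:94739039-94739338 (plus), Vegfc on chr8:54077282-54077581 (plus) and Flt1 on chr5:147725962-147726261 (minus).
Tie1: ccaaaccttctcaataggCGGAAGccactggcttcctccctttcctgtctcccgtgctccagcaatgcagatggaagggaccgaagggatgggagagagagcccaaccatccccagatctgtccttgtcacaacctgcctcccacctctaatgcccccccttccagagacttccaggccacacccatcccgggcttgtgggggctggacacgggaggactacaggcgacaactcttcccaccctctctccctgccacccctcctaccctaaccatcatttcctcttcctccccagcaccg
Tek: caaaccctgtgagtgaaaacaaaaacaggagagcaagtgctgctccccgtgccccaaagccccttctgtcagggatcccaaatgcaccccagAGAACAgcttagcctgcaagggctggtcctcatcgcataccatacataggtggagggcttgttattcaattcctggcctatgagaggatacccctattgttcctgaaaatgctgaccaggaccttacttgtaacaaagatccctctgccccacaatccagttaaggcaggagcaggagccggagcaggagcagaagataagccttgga
Vegfc: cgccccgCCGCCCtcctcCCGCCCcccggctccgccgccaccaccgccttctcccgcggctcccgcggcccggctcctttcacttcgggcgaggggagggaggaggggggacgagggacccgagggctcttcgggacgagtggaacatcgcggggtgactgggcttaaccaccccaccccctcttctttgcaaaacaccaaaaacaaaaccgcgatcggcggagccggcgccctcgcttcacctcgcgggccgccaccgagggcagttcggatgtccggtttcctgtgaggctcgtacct
Flt1: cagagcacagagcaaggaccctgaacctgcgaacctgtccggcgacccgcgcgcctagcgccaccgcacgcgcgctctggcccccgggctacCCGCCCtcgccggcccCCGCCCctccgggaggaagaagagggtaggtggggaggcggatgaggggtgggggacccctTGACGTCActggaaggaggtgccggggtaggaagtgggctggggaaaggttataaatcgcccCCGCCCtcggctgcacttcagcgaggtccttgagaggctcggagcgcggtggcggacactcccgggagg

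The TIE receptor windows had no GC box, while the other 7 windows, those of Vegfa, Vegfb, Vegfc, Flt1, Kdr and Flt4, had at least 1, against 35.7% of all 32851 windows in the table. The share of G and C was 60.3% in the Tie1 and 52% in the Tek window, against 59.3% to 75.3% in the windows with a GC box. The receptor half-site AGAACA occurred in 1 of the 9 windows, that of Tek, 158 bases before the start, and in 19.0% of all windows. The ETS core occurred in the Tie1 window, 232 bases before the start, and in 16.9% of all windows. The Flt1 window held the cyclic AMP response element 81 bases before the start, a sequence found in 1.79% of all windows. The hypoxia core was found in 1 window, the second one of Vegfa, as its reverse complement, and in 19.6% of all windows. These matches are letters in a window, and binding was not measured.

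The endothelial cell markers, which mark the cells that carry these receptors, had a lower median difference than either TIE gene. Of 20 markers, all measured, 13 were higher and 7 lower in the PR knockout, with 1 past 1.5-fold in each direction and a median log2 difference of 0.15. The summed signal of the list was 5506 in the PR knockout and 5489 in the wild type ovary, and none of the 20 was under the floor on both arrays. The stem cell and endothelial antigen gene Cd34 differed most, 1.61-fold lower in the PR knockout at 759, against 1224 in the wild type. As the brightest marker on both arrays, Cd34 weighs most in the summed signals. Their near equality therefore does not show that the markers were level. The clotting factor gene Vwf was at least 1.51-fold higher, with the wild type under the floor, and the tight junction gene Cldn5 1.42-fold higher. Pecam1 and Cdh5, adhesion genes that define endothelium, had log2 differences of 0.31 and -0.06. The median of the endothelial markers was also subtracted, a step chosen after seeing the data. The log2 differences were then 0.80 for Tie1, 0.79 for Angpt2, 0.62 for Vegfc, 0.35 for Tek, 0.27 for Angpt1 and 0.13 for Flt4. Vegfb was at -0.12, Vegfa at -0.15, Kdr at -0.22 and Flt1 at -0.46. The markers themselves ran from -0.69 to 0.59, so 1 subtracted value does not correct for cell content, whose part was not tested. In whole ovaries more cells of a type and more RNA per cell cannot be told apart.

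Markers of other cells were compared in the same way. Lymphatic endothelial markers gave no common direction, with 2 of 4 higher and 2 lower. Prox1, the factor that defines lymphatic endothelium, was under the floor on both arrays (15.7 in the PR knockout and 15.8 in the wild type). The membrane protein gene Pdpn, which other ovarian cells also express, was 2.84-fold higher, while the hyaluronan receptor gene Lyve1 was 1.59-fold and the matrix protein gene Reln 1.53-fold lower. The summed signal of the 4 was 1157 in the PR knockout and 951 in the wild type. Pdpn, at 623 in the PR knockout and 220 in the wild type, set the direction of this sum. The median log2 difference of the 4 was -0.13. Mural cells, which wrap vessels and are a source of Angpt1, had 7 of 12 markers higher, a median of 0.03 and summed signals of 12544 in the PR knockout and 12854 in the wild type. Their largest differences were in the potassium channel gene Kcnj8 (1.89-fold lower), the adhesion gene Mcam (1.54-fold lower) and the PDGF receptor gene Pdgfrb (1.25-fold higher).

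Granulosa and stroma markers were mostly higher in the PR knockout, as Angpt2 and the TIE genes were. Of 9 granulosa markers 8 were higher in the PR knockout, 4 by at least 1.5-fold, with a median of 0.27 and summed signals of 23378 in the PR knockout and 21457 in the wild type. The estrogen receptor gene Esr2 (1.91-fold) and Inhbb (1.77-fold) and Inhba (1.60-fold), which encode subunits of activins and inhibins, led. Of 8 stroma markers 6 were higher, with a median of 0.20 and summed signals of 19327 in the PR knockout and 17131 in the wild type, and the transcription factor gene Tcf21 was 2.76-fold, Lum 1.79-fold higher and Pdgfra 1.33-fold lower. The part of these markers in the differences of the VEGF and angiopoietin genes was not tested. Theca and luteal markers had a median of -0.01 (3 of 6 higher), with Star 1.47-fold and Cyp17a1 1.38-fold lower and Ptgfr 1.16-fold higher. Leukocyte markers had a median of 0.04 (2 of 4 higher), with Csf1r 1.37-fold and Adgre1 1.20-fold higher and Ptprc 1.15-fold lower. Oocyte markers had a median of 0.15 (7 of 7 higher), with Nlrp5 1.48-fold, Ooep 1.23-fold and Bmp15 1.19-fold higher. Of the red blood cell markers only Alas2 was measured, at -0.07 on the log2 scale. Of the oviduct, fat and surface epithelium markers 4 of 5 were lower, with summed signals of 376 in the PR knockout and 818 in the wild type. Fabp4, which endothelial cells express as well as fat cells, was 4.72-fold lower, the keratin genes Krt7 and Krt19 were 3.15-fold and 1.53-fold lower, and the fat hormone gene Adipoq was under the floor on both arrays.

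The other ligands, co-receptors and modulators of these receptors had differences under 1.5-fold by their brightest probe sets, apart from Angptl1, for which only a bound can be given. Of 11 genes 9 were measured, with 5 higher, 4 lower, 0 past 1.5-fold and a median of 0.20. The co-receptor gene Nrp1, which presents VEGF-A to KDR, gave 678 in the PR knockout and 944 in the wild type ovary, 1.39-fold lower. That was the largest difference among its 4 probe sets, whose log2 differences lay between -0.48 and -0.05. The co-receptor gene Nrp2, which also binds VEGF-C, was 1.15-fold higher, but the log2 differences of its 4 probe sets lay between -0.28 and 0.45. Vegfd, a further ligand of FLT4, gave 224 in the PR knockout and 288 in the wild type, 1.28-fold lower. The log2 differences of its 3 probe sets lay between -0.58 and -0.08, so it differed in the opposite direction from Vegfc. Ccbe1, whose product helps to process VEGF-C, was higher in the PR knockout, with log2 differences of 0.21 (its brightest probe set, 1.15-fold) and 0.81. Around TIE2, the phosphatase gene Ptprb, which restrains the receptor, was 1.31-fold and the angiopoietin gene Angpt4 1.29-fold higher, and the matrix protein gene Svep1 1.13-fold lower. Of the angiopoietin-like genes, Angptl4 was 1.48-fold lower at 900 in the PR knockout and 1329 in the wild type, and Angptl1 was at least 1.37-fold higher. Their log2 differences, -0.56 and at least 0.46, were the lowest and the highest of the list. Both are listed by gene family, and an action of their products on these receptors was not tested. Pgf, the placental ligand of FLT1, was under the floor on both arrays.

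Genes that relay the receptors' signals were close to equal by their brightest probe sets, with 10 of 28 higher, 18 lower and a median of -0.05. By these probe sets the adaptor gene Grb14 was the 1 member past 1.5-fold (1.58-fold higher). Next came the transcription factor gene Foxo1 (1.39-fold higher), whose product drives Angpt2 transcription in endothelial cells, and the chaperone gene Hspb1 (1.31-fold lower). At least 1 other probe set each of Pik3ca, Yes1 and Foxo1 also passed 1.5-fold. Log2 differences over their probe sets lay between -0.30 and 1.40 for Pik3ca, -0.82 and -0.30 for Yes1, and 0.47 and 0.64 for Foxo1. Endothelial genes that respond to VEGF mostly went the other way from Angpt2, which is itself on that list. Of 20 genes 18 were measured, and Esm1 and Sele were under the floor on both arrays. Lower were 13 of the 18, against 4781 of all 11316 measured genes, with a median of -0.27, or -0.28 without Angpt2. At least 2-fold lower were 6, against 1.72% of all measured genes. Ptgs2, the inducible prostaglandin synthase gene, was at least 49.3-fold lower, the transcription factor gene Egr3 11.8-fold and the protease gene Adamts1 8.89-fold lower. These 3 are also genes that luteinizing hormone induces in follicle cells. For no gene of this list does whole-ovary RNA say which cells the signal came from. Angpt2 was the 1 gene of the list at least 1.5-fold higher.

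Genes of the hypoxia pathway, a known inducer of Vegfa, were lower in 12 of 18 cases, against 4781 of all 11316 measured genes. At least 1.5-fold lower were 6 of the 18, against 4.75% of all measured genes, and 0 were at least 1.5-fold higher, against 6.54%. Their median was -0.39, while Vegfa itself was level. The list pools regulators with targets, so its median does not give the direction of either. Bhlhe40, a transcriptional repressor gene, was 2.94-fold, the hypoxia marker gene Ndrg1 2.27-fold and the glucose transporter gene Slc2a1 1.95-fold lower. Inhibitors of vessel growth had a median of 0.08 with 8 of 15 higher. Adamts1, whose product can bind VEGF-A, is on this list too, and the feedback inhibitor genes Spry2 and Spry4 were 2.67-fold and 1.49-fold lower, so that 2 of the 15 were at least 1.5-fold lower. The plot of the lists shows these medians beside the VEGF and angiopoietin genes.

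**Figure D3:**
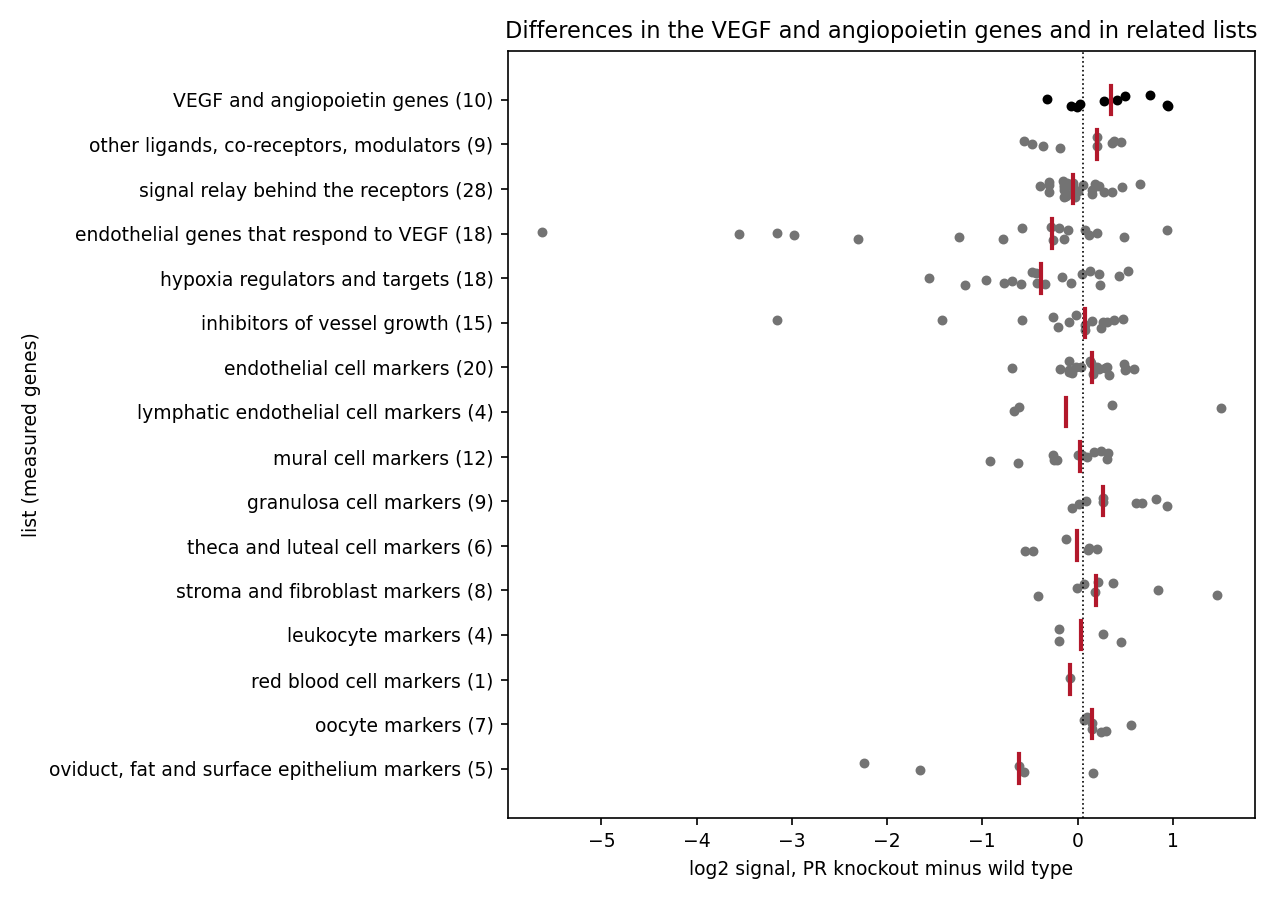
Log2 difference, PR knockout minus wild type, of each measured gene (points) in the VEGF and angiopoietin genes (black) and in the related lists, with the number measured. Red bars are list medians, from 0.35 for the VEGF and angiopoietin genes to -0.62 for the oviduct, fat and surface epithelium markers, and the dotted line is the median of all measured genes (0.06).

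Which genes passed 1.5-fold depended on how dim signals were treated. Angpt2 stayed past 1.5-fold under all 9 alternatives and Tie1 under 8, and Vegfc under 7. Not every alternative could change these values. Angpt2 and Tie1 have 1 measured probe set each. Removing the floor, averaging probe sets or keeping plain IDs therefore returned their reported differences of 0.94 and 0.95. With the 70th-percentile floor Tie1 had a log2 difference of at least 0.12, Vegfc of at least 0.47 and Angpt2 of at least 0.88, bounds because their wild type signals are then under the floor. Vegfc was at 0.55 with an offset of 50 signal units. Kdr, Vegfa and Flt1 had log2 differences below 0 under every alternative that measured them, while Vegfb turned from 0.03 to negative values under 4 of 8, down to -0.12.

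**Figure D4:**
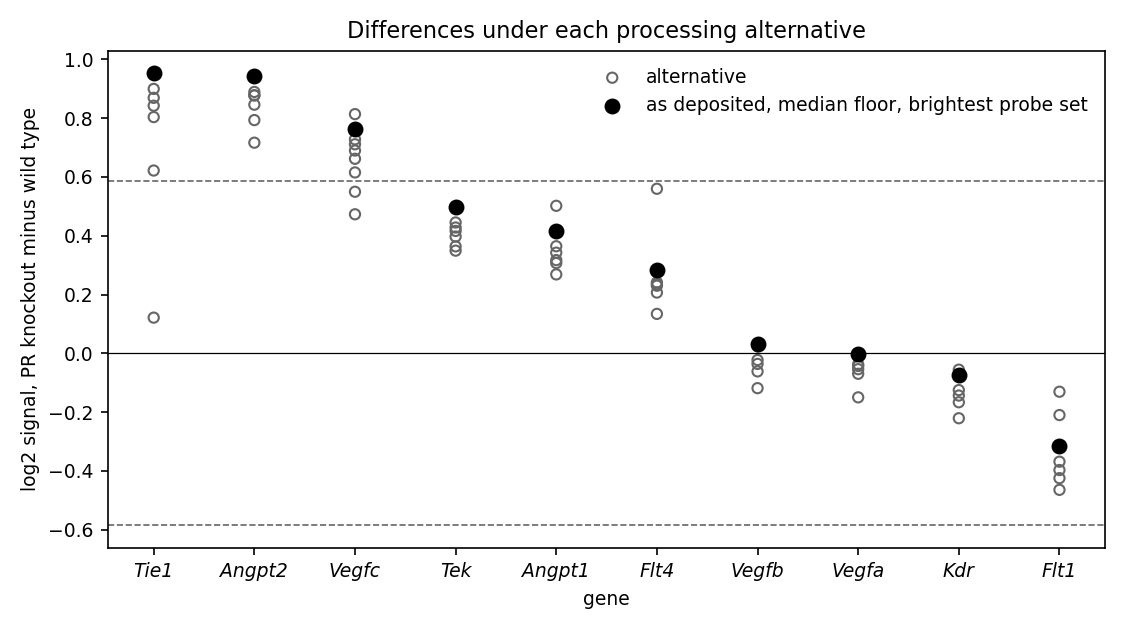
Log2 difference, PR knockout minus wild type, of the 10 genes as reported (filled) and under each processing alternative (open), with dashed lines at 1.5-fold. Angpt2 lies above the upper dashed line throughout (0.72 to 0.94), whereas the bound for Tie1 with the 70th-percentile floor is 0.12.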

How the data were processed

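RNA from PR knockout and wild type ovaries was hybridized to 1 Affymetrix Mouse Genome 430 2.0 array each, after labelling 100 ng of total RNA with a kit that primes at the 3′ end, per the labels' protocols. The deposited intensities are linear signals that the authors computed with MAS5 and Affymetrix Expression Console version 1, per the submitters' processing notes. The mean of each array, after trimming 2% at each end, was 150, so the arrays had been scaled to a common target. MAS5 subtracts mismatch signals, which makes low values noisy.

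The 64 control probe sets were set aside. Probe sets with 1 symbol (34945) were used, those with several (932) or none (9160) were not, and the gene IDs of all 10 genes were found in the RefSeq table. Signals under each array's median were set to it. A fold is written as "at least" where the lower signal was under the floor or no higher than Pgr's. Calculations used Python 3.11.15, pandas 2.3.3 and statsmodels 0.14.6 (loess span 0.4), and were tested on simulated data with 200 changed genes. The genes and lists were chosen with earlier results of these data known. From each list the 3 largest differences are named, and each measured gene of the list of other ligands. Alternatives were median centring, quantile normalization, loess, floors, an offset, the mean over probe sets, plain probe set IDs only, a 2-fold threshold and, chosen after seeing the data, subtraction of the endothelial marker median and a demand on every probe set. The number of arrays limits the precision.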

Additional observations from a re-analysis of the deposited data

How the results depend on the processing

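The count of genes at least 1.5-fold higher in the PR knockout was 3 as reported, 1 with the 70th-percentile floor, which only Angpt2 passed, and 0 at 2-fold. With the offset of 50 it was 2, and it stayed at 3 under the other 8 alternatives. These include those chosen after seeing the data, the subtraction of the endothelial marker median and the demand that every measured probe set pass. Among the 3 genes that demand could change only Vegfc, since Tie1 and Angpt2 have 1 measured probe set each. The count at least 1.5-fold lower was 0 under all 11. The median of the 10 genes ran from 0.20 after subtraction of the endothelial marker median to 0.50 with the mean over probe sets. It was taken over 9 genes with the 70th-percentile floor, which leaves Flt1 unmeasured, and with plain probe set IDs, which leave out Vegfb. Flt4 moved to 0.56 with the mean over probe sets, and Tie1 to 0.62 with the offset. The median of the list of other ligands, co-receptors and modulators turned to -0.080 with the 70th-percentile floor, over 6 genes measured there. The medians of the signal relay and mural lists, near 0 as reported, ran from -0.10 to 0.06 and -0.02 to 0.09. That of the inhibitor list, 0.08 as reported, was lower under all 8 alternatives (-0.01 to 0.03) and below 0 under 5 of them. The endothelial marker median stayed between 0.09 and 0.16, and that of the hypoxia list between -0.44 and -0.34. The background of genes at least 1.5-fold higher was 14.95% without a floor, 3.25% with the 70th-percentile floor, 3.35% after subtraction of the endothelial marker median and 1.59% with the offset. The background of genes at least 1.5-fold lower was 16.4%, 3.95%, 7.94% and 1.96% under the same settings. The floors and the offset act on dim signals by construction, and dim signal limits the value of Tie1, at 68.0 in the wild type, and those of the dimmer probe sets of Flt1, Flt4 and Angpt1. No paired analysis was possible because each genotype has 1 array.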
